A study of Mus musculus with 8 samples.

Results

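The 10 genes described here mark macrophages and dendritic cells: Csf1r, Cd68, Lyz2, Adgre1, Aif1, Tyrobp, Fcer1g, Cx3cr1, Itgax and Itgam. They were picked by gene symbol, as all rows of those names, and are 10 of the 55487 named rows of the deposited gene table. The table comes from RNA sequencing of ileal crypt cells of C57BL/6 mice. One group of 4 libraries came from mice given CPT-11 (irinotecan, a prodrug whose product poisons topoisomerase I) at 20 mg/kg for 7 days, and the other 4 came from vehicle-treated mice. Crypts, the pits of the intestinal lining that house stem and Paneth cells, were shaken off the ileum after EDTA, strained and made into single cells with trypsin. No sort was described, so cells of the lamina propria could come along. No age is given for the mice.

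Macrophages of the gut wall lie directly under the epithelium, engulf dying cells and microbes, and depend on signals through the CSF1 receptor. Dendritic cells sample antigen there and carry it to lymph nodes. Both cell types use the ITAM-bearing adapter proteins encoded by Tyrobp and Fcer1g to pass signals from activating receptors to the kinase SYK, and both attach through integrins that pair an alpha chain such as those from Itgam or Itgax with the shared beta 2 chain from Itgb2. None of the 10 genes is private to a single cell type: lymphocytes, natural killer cells, mast cells and some epithelial cells also use several of them. In RNA from a bulk preparation, fewer cells of a type and less RNA per cell cannot be told apart.

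Total estimated counts ran between 20790164 and 23479121 per library. CPT-11 replicate 2 stood apart, with a TMM scaling factor of 0.731 against 0.977 to 1.099 in the other 7 libraries. Its Spearman correlations with the other CPT-11 libraries lay between 0.931 and 0.962. Whether the 4 libraries of a group stand for 4 mice is not stated, so every p-value here measures only the spread between these libraries, which may be technical. Levels are in CPM (counts scaled to the library's TMM-adjusted size) unless stated otherwise, and differences are log2 fold changes of CPT-11 over vehicle with their standard error. Unless an alternative is named, an adjusted p is from edgeR's quasi-likelihood test, two-sided, with Benjamini-Hochberg adjustment over all 14011 genes tested. Alternatives, which include DESeq2, limma and other filters, are adjusted over the genes each one tested. A gene is called where it is below 0.05.

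Among the 10 markers, Aif1 was higher in CPT-11 crypts and passed the test, at 1.08 ± 0.304 CPM with CPT-11 and 0.246 ± 0.128 CPM with vehicle (SD, n = 4 each). Tyrobp, Fcer1g, Csf1r and Cd68 had positive log2 fold changes between 0.71 and 1.26 that did not pass. Itgam had a log2 fold change of -2.30 that also did not pass, and Lyz2 and Itgax had values near 0. Adgre1 and Cx3cr1, which encode the classic surface markers F4/80 and fractalkine receptor, had at most 9 and 11 counts in any library and were below the expression filter. Thus 1 of the 8 markers tested was called, beside 5.5% of all genes tested, and it was called upward, beside 2.98% of all genes called upward. No marker was called downward, beside 2.52% of all genes, while at an unadjusted p below 0.05, which 24.6% of all genes reached, 4 markers were higher and 1 was lower. DESeq2 called 3 markers upward and 1 downward, but it also called more genes over the whole table, 1884 against 770 by edgeR. A single call among 8 genes is not read as a result about the set.

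The CPM of the groups did not overlap for 3 of the 8 tested markers, beside 18.5% of all genes tested. Aif1 and Tyrobp were higher in all 4 CPT-11 libraries, beside 8.43% of all genes, and Itgam was lower in all 4, beside 10.1%. Overlap depends on the unit, since in TPM the groups of Csf1r and Fcer1g did not overlap either. The share of all genes without overlap in TPM was not computed. The median log2 fold change of the 8 tested markers was 0.88, beside 0.014 over all genes tested, and 5 of the 8 values were positive and 3 negative. The filter needs about 10 counts in 4 libraries, which Aif1 met only through the CPT-11 group and Itgam only through the vehicle group, so neither the count nor the median describes all 10 markers. The median was 0.29 without CPT-11 replicates 2 and 4.

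**Figure D1:**
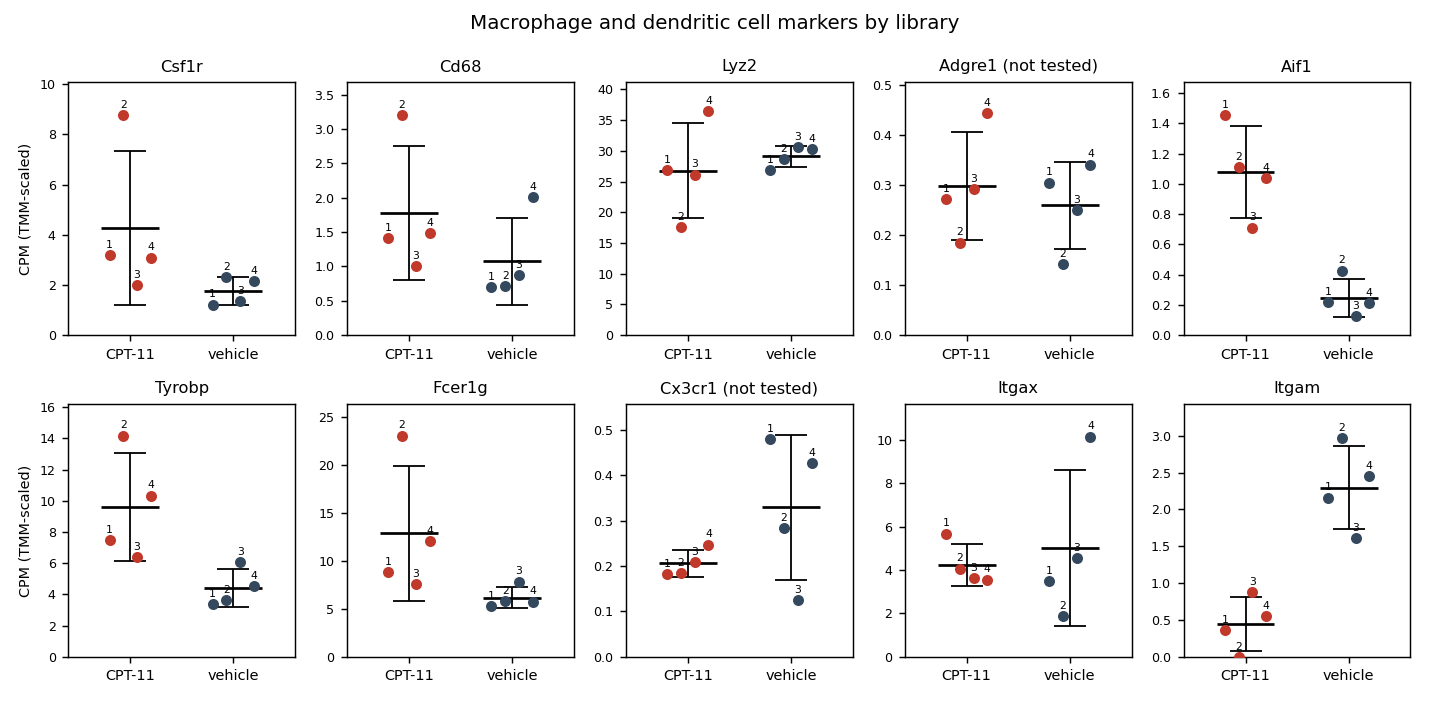
Level of each of the 10 markers in each library, in CPM scaled by TMM on linear axes that start at 0. Points are libraries numbered by replicate, with CPT-11 left and vehicle right, thick lines are group means and bars are 1 SD (n = 4 per group). The groups are apart for Aif1, Tyrobp and Itgam, CPT-11 replicate 2 is the highest library for Csf1r, Cd68, Tyrobp and Fcer1g, and vehicle replicate 4 is the highest for Itgax.

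Per unit of transcript length, the markers spanned a wide range of levels. In TPM, which divide each count by the table's gene length, Lyz2 averaged 24.8 TPM with CPT-11 and 28.2 TPM with vehicle. Fcer1g averaged 19.8 TPM with CPT-11 and 11.5 TPM with vehicle, and Tyrobp 17.6 TPM with CPT-11 and 9.37 TPM with vehicle. Within the CPT-11 libraries these 3 markers overlapped one another, Lyz2 at 9.64 to 31.5 TPM, Fcer1g at 17.15 to 24.4 TPM and Tyrobp at 16.5 to 19.7 TPM, whereas in the vehicle libraries Lyz2, at 27.5 to 29.8 TPM, lay above Fcer1g at 10.5 to 13.9 TPM and Tyrobp at 7.60 to 12.3 TPM, which overlapped each other. Cd68, Aif1, Itgax and Csf1r stayed at or below 3.26 TPM in all 8 libraries, and within the CPT-11 group their ranges overlapped. Itgam lay at 0 to 0.366 TPM with CPT-11 and 0.524 to 1.02 TPM with vehicle. Adgre1 and Cx3cr1 were lowest, with no library above 0.156 TPM for Adgre1 or 0.144 TPM for Cx3cr1.

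Csf1r encodes the receptor tyrosine kinase for CSF1 and IL-34, the growth factor signal on which macrophages depend (chromosome 18, 61100598 to 61132149 on the plus strand of GRCm38, as GENCODE M21 gives it). It measured 3.20, 8.78, 1.98 and 3.09 CPM in CPT-11 replicates 1 to 4, against 1.21, 2.33, 1.36 and 2.14 CPM in vehicle replicates 1 to 4. CPT-11 replicate 2 stood well above the other 7 libraries, and CPT-11 replicate 3 lay inside the vehicle range in CPM. In TPM the groups were just apart, at 0.788 to 1.64 TPM with CPT-11 and 0.423 to 0.761 TPM with vehicle. Csf1r had a log2 fold change of 1.26 ± 0.46 (edgeR adjusted p = 0.133), which was 0.65 without CPT-11 replicate 2 (edgeR adjusted p = 0.213). The 3′ end of Csf1r overlaps Hmgxb3 on the opposite strand, which averaged 22.6 ± 6.47 CPM with CPT-11 and 26.6 ± 1.86 CPM with vehicle (SD, n = 4 each), and without stated strand use reads from the overlap cannot be assigned to either.

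Tyrobp encodes DAP12, the adapter that couples TREM and other activating receptors to SYK (chromosome 7, 30413760 to 30417585, plus strand). It measured 7.49, 14.2, 6.40 and 10.3 CPM in CPT-11 replicates 1 to 4, against 3.36, 3.65, 6.10 and 4.52 CPM in vehicle replicates 1 to 4. All CPT-11 libraries lay above all vehicle libraries, with CPT-11 replicate 3 and vehicle replicate 3 nearly touching. Its log2 fold change of 1.12 ± 0.29, a 2.17-fold difference, just missed the threshold (edgeR adjusted p = 0.0525). Over the 20 alternatives it ran between 0.66 and 1.31, with adjusted p between 0.0052 (DESeq2) and 0.158 (edgeR without vehicle replicate 1). It was called in 6 of them, among them the fits without CPT-11 replicate 2 (edgeR adjusted p = 0.0487) and without CPT-11 replicate 3 (edgeR adjusted p = 0.0274).

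Fcer1g encodes the gamma chain shared by Fc receptors and is the second ITAM adapter of the set (chromosome 1, 171229572 to 171234365, minus strand). It measured 8.86, 23.1, 7.62 and 12.1 CPM in CPT-11 replicates 1 to 4, against 5.32, 5.83, 7.85 and 5.76 CPM in vehicle replicates 1 to 4. Of the CPT-11 libraries, 3 lay above all vehicle libraries, and CPT-11 replicate 3 lay just below vehicle replicate 3 in CPM. In TPM the groups did not overlap, with CPT-11 at 17.15 TPM or above and vehicle at 13.9 TPM or below. Fcer1g had a log2 fold change of 1.05 ± 0.33 (edgeR adjusted p = 0.0942). Without CPT-11 replicate 2 it was 0.63 (edgeR adjusted p = 0.081), and without CPT-11 replicate 3 it was 1.24 and called (edgeR adjusted p = 0.0413). With each library's trend on gene length removed it was 0.65 (edgeR adjusted p = 0.0576), and the transcript of Fcer1g is short, at 683 bases.

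Receptors and kinases around these adapters went both ways. Of 19 genes listed as ITAM partners and kinases, 13 were tested, 1 was called upward and none downward. Their log2 fold changes were positive for 9 and negative for 4, with a median of 0.09. The called gene was Card9, an adapter downstream of SYK-coupled receptors, at 7.64 ± 3.82 CPM with CPT-11 and 1.31 ± 1.08 CPM with vehicle (log2 fold change 2.53, edgeR adjusted p = 0.0301, SD, n = 4 each). That call was lost when CPT-11 replicate 1 or 4, vehicle replicate 1, 2 or 3, or CPT-11 replicates 2 and 4 together were left out, and in each case 0 genes of the list were called. Syk itself averaged 23.7 ± 2.38 CPM with CPT-11 and 31.0 ± 1.76 CPM with vehicle (log2 fold change -0.39, edgeR adjusted p = 0.0929). Hcst, which encodes the related adapter DAP10, had a log2 fold change of 1.34 (edgeR adjusted p = 0.147), and Lat2 had 0.69 (edgeR adjusted p = 0.218). Of the receptors that pair with DAP12, the listed Trem2, Trem1 and Clec5a were barely counted. Trem2 had 0 to 3 counts in any library, Trem1 likewise was untested, and Clec5a had 0 to 4. Other receptors that pair with DAP12 were not in this list.

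Aif1 encodes IBA1, a calcium-binding protein that bundles actin during membrane ruffling and phagocytosis (chromosome 17, 35170991 to 35176068, minus strand). It had 32, 18, 17 and 21 counts in CPT-11 replicates 1 to 4, against 5, 9, 3 and 5 counts in vehicle replicates 1 to 4. These correspond to 1.45, 1.11, 0.712 and 1.04 CPM with CPT-11, and 0.218, 0.426, 0.125 and 0.213 CPM with vehicle. The lowest CPT-11 library lay above the highest vehicle library. The difference was 2.12 ± 0.43 on the log2 scale, or 4.35-fold (edgeR adjusted p = 0.0229). The call rests on few reads and on all libraries together, since 5 of the 8 fits that left out a single library did not pass. The edgeR adjusted p was 0.0714 without CPT-11 replicate 1, 0.0539 without CPT-11 replicate 4, 0.0843 without vehicle replicate 1, 0.0842 without vehicle replicate 3 and 0.0721 without vehicle replicate 4, while the log2 fold change over the 8 fits ran between 1.90 and 2.49. Without CPT-11 replicates 2 and 4 it was 2.13 and called (edgeR adjusted p = 0.0359).

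**Figure D2:**
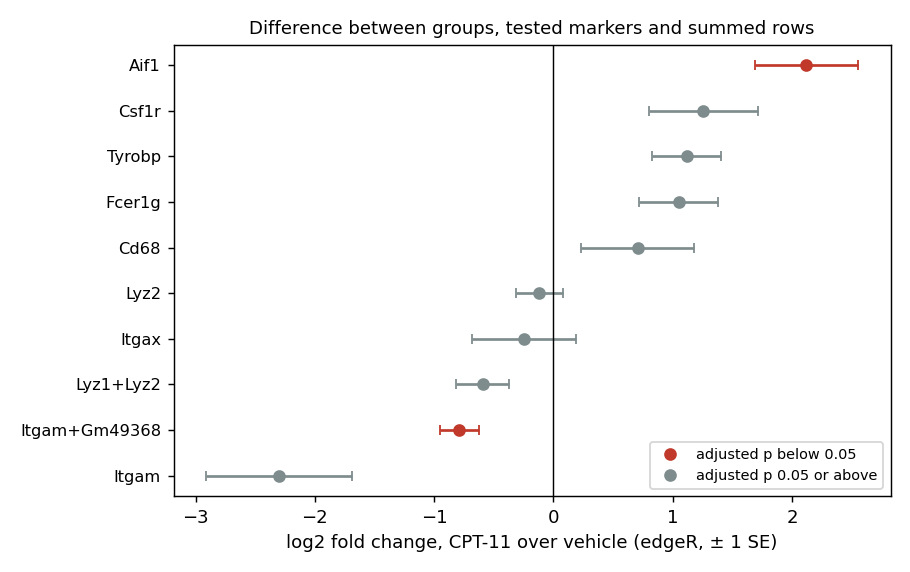
Log2 fold change of CPT-11 over vehicle with 1 SE from edgeR for the 8 tested markers and for the summed rows Lyz1 plus Lyz2 and Itgam plus Gm49368. Aif1 at 2.12 and Itgam plus Gm49368 at -0.79 have an adjusted p below 0.05, and the other values do not.

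Cd68 encodes a glycoprotein of macrophage lysosomes (chromosome 11, 69664213 to 69666153, minus strand). It measured 1.41, 3.21, 1.004 and 1.48 CPM in CPT-11 replicates 1 to 4, against 0.698, 0.711, 0.877 and 2.005 CPM in vehicle replicates 1 to 4. Each group held 1 library far above its other 3, namely CPT-11 replicate 2 and vehicle replicate 4. Cd68 had a log2 fold change of 0.71 ± 0.47 (edgeR adjusted p = 0.369), which was 0.28 without CPT-11 replicate 2 and 1.20 when vehicle replicate 4 was left out.

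Lyz2 encodes the lysozyme of macrophages and other myeloid cells and lies beside Lyz1, which encodes the lysozyme of Paneth cells, on the minus strand of chromosome 10 (Lyz2 at 117277331 to 117282321, Lyz1 at 117287797 to 117292868). The coding sequences, read from the GENCODE M21 transcripts on GRCm38, are both 447 bases long and 95.1% identical, with 22 differing bases and a longest identical stretch of 118 bases. Bases 1 to 300 of each, counted from the A of the start codon, are printed to show how much of one gene could be read as the other, and the 20 differing bases they hold are in capitals.
Lyz2 bases 1 to 300: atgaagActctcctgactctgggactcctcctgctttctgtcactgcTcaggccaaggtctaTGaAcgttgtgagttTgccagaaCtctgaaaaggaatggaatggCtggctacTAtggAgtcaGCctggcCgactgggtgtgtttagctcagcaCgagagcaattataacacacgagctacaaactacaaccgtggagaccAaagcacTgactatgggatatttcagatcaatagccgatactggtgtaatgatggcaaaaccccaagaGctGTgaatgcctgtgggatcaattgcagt
Lyz1 bases 1 to 300: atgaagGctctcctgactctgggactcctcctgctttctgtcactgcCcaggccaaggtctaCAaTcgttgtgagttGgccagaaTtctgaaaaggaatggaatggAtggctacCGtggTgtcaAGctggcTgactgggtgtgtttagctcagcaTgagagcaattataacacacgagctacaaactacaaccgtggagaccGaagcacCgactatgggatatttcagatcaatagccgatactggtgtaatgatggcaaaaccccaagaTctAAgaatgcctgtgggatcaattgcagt
Over the whole Lyz2 transcript, 15.4% of 50-base windows and 1.97% of 100-base windows occurred unchanged in a Lyz1 transcript, and none of 150 bases did.

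Lyz2 measured 26.9, 17.6, 26.1 and 36.5 CPM in CPT-11 replicates 1 to 4, against 26.9, 28.6, 30.6 and 30.3 CPM in vehicle replicates 1 to 4. The vehicle libraries lay close together, while the CPT-11 libraries held both the lowest and the highest value of all 8. The log2 fold change was -0.12 ± 0.20 (edgeR adjusted p = 0.729), and it was 0.05 without CPT-11 replicate 2 (edgeR adjusted p = 0.87). Per length Lyz1 was far more abundant, at 11730 TPM with CPT-11 and 19590 TPM with vehicle. In CPM it stood at 12830 ± 1990 CPM with CPT-11 and 19360 ± 2553 CPM with vehicle (log2 fold change -0.59 ± 0.22, edgeR adjusted p = 0.146, SD, n = 4 each), and was lower in all 4 CPT-11 libraries. Lyz2 made up 0.238%, 0.124%, 0.237% and 0.244% of the summed lysozyme count in CPT-11 replicates 1 to 4, against 0.129%, 0.16%, 0.138% and 0.182% in vehicle replicates 1 to 4. The share was higher in 3 of the 4 CPT-11 libraries than in any vehicle library, and the groups differed by an exact two-sided permutation p = 0.143 (n = 4 each). How reads common to both genes were divided was not tested, so a Lyz2 level of this size beside Lyz1 is uncertain as a myeloid signal.

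Itgam encodes the alpha M chain of the complement receptor CR3 (CD11b), found on macrophages, monocytes, neutrophils and some dendritic cells (chromosome 7, 128062640 to 128118491, plus strand). GENCODE M21 places the protein-coding gene Gm49368 over it on the same strand, at 128062683 to 128128160. Of the 50-base windows of the Itgam transcript, 72.4% also occurred in a Gm49368 transcript, and 69.6% of 150-base windows did. The RefSeq promoter of Itgam on GRCm38.p6, chr7:128062390-128062689 on the plus strand, is shown because the annotated starts of both genes lie in it. Capitals mark the 3 matches to GAGGAA, the core bound by the myeloid transcription factor PU.1, or to its reverse complement TTCCTC.
Itgam promoter: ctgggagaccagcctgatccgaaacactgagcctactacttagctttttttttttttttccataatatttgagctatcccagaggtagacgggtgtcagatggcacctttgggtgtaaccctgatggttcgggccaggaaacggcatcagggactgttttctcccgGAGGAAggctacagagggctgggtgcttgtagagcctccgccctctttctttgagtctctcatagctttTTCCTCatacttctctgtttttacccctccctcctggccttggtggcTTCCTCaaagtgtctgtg
A match on either strand was held by 28.3% of the 32851 promoters of this length (9289 promoters), and by 3 of the 7 marker promoters in the RefSeq table, those of Itgam, Aif1 and Cd68.

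The row for Itgam held 8.06, 0, 21.02 and 11.3 estimated counts in CPT-11 replicates 1 to 4, against 49.6, 62.6, 38.5 and 57.4 in vehicle replicates 1 to 4. In CPM these were 0.366, 0, 0.880 and 0.557 with CPT-11, and 2.16, 2.97, 1.61 and 2.45 with vehicle. All CPT-11 libraries lay below all vehicle libraries, and CPT-11 replicate 2 was at 0. The log2 fold change was -2.30 ± 0.61 (edgeR adjusted p = 0.0579), and over the 20 alternatives the adjusted p ran between 0.00115 (DESeq2) and 0.139 (edgeR without vehicle replicate 1), with 8 calls, 1 of them for the sum with Gm49368. Gm49368 averaged 6.54 ± 0.78 CPM with CPT-11 and 9.80 ± 1.87 CPM with vehicle (log2 fold change -0.58 ± 0.18, edgeR adjusted p = 0.0888, SD, n = 4 each), again lower in all 4 CPT-11 libraries.

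Adding both rows, a sum chosen after the values were seen, gave 6.86, 5.86, 8.53 and 6.72 CPM in CPT-11 replicates 1 to 4, against 13.9, 11.01, 12.7 and 10.8 CPM in vehicle replicates 1 to 4. Every CPT-11 library lay below every vehicle library. The summed locus had a log2 fold change of -0.79 ± 0.16 and was called (edgeR adjusted p = 0.0249). The log2 fold change at this locus was thus -2.30 for the Itgam row and -0.79 for the sum, which does not depend on how shared reads were divided between the rows. The Itgam row held 5.34%, 0%, 10.3% and 8.28% of the sum in CPT-11 replicates 1 to 4, against 15.6%, 27%, 12.7% and 22.6% in vehicle replicates 1 to 4. The share was lower in all 4 CPT-11 libraries, with an exact two-sided permutation p = 0.0286 (n = 4 each). That is the smallest that 4 against 4 libraries allow, and it was 0.0572 after adjustment over the 2 shares tested. The share was picked with the Itgam row already seen to be lower in all 4 CPT-11 libraries, so its p-value is not separate support. It also depends on how shared reads were divided, which was not tested. The call on the sum was lost without CPT-11 replicate 1 (edgeR adjusted p = 0.0716), CPT-11 replicate 4 (0.063), vehicle replicate 1 (0.0969), vehicle replicate 2 (0.0521) or vehicle replicate 3 (0.0888).

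**Figure D3:**
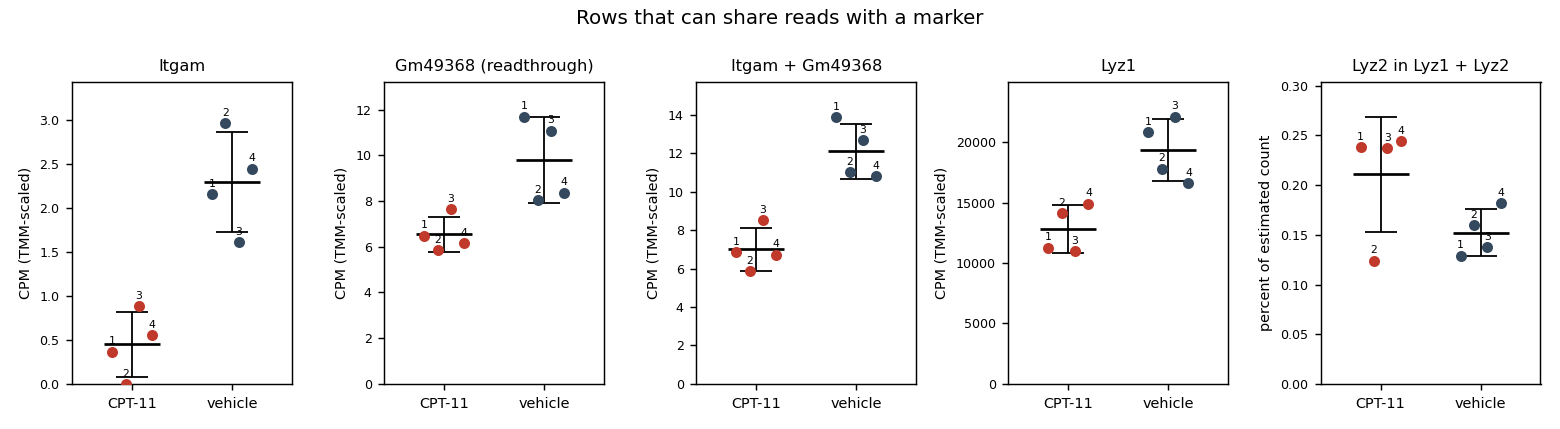
Rows that can share reads with a marker, by library, with CPT-11 left and vehicle right, group means as thick lines and 1 SD as bars (n = 4 per group). The first 4 panels are in CPM and the last is the percent of the Lyz1 plus Lyz2 count held by Lyz2. All axes are linear and start at 0. The word readthrough in the title of the Gm49368 panel was not checked against the annotation. Itgam, Gm49368, their sum and Lyz1 are lower in all 4 CPT-11 libraries, while the Lyz2 share is lowest in CPT-11 replicate 2.

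Itgax encodes the alpha X chain (CD11c), prominent on dendritic cells and intestinal macrophages and also present on some intraepithelial lymphocytes (chromosome 7, 128129547 to 128150657, plus strand). It measured 5.68, 4.07, 3.64 and 3.55 CPM in CPT-11 replicates 1 to 4, against 3.51, 1.90, 4.55 and 10.1 CPM in vehicle replicates 1 to 4. All CPT-11 libraries lay within the wide vehicle range, whose top was vehicle replicate 4. The log2 fold change was -0.25 ± 0.44 (edgeR adjusted p = 0.748) and turned to 0.35 without vehicle replicate 4 (edgeR adjusted p = 0.554). Among all 8 libraries, vehicle replicate 4 was also highest for the summed pan-leukocyte genes, at 361.8 CPM, beside 109.7 to 216.1 CPM in the other 3 vehicle libraries and 190.0 to 252.6 CPM in the CPT-11 libraries. Its summed T and natural killer cell genes, at 527.3 CPM, were above the 163.2 to 464.0 CPM of the other vehicle libraries. In the CPT-11 libraries that sum ran between 347.8 and 547.0 CPM. It was highest in CPT-11 replicate 2, where Itgax was at 4.07 CPM. The part of these cells in the Itgax level was not tested.

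Around the integrins, none of the 8 listed beta 2 integrin partners was called, and their median log2 fold change was 0.09. Itgb2, which encodes the beta 2 chain without which neither alpha chain reaches the cell surface, averaged 9.05 ± 0.846 CPM with CPT-11 and 11.2 ± 5.88 CPM with vehicle (log2 fold change -0.31, edgeR adjusted p = 0.555, SD, n = 4 each). Itgal, the lymphocyte alpha chain, had a log2 fold change of -1.15 (edgeR adjusted p = 0.345), and Itgad, which neighbours Itgax and shares 3.7% of its 100-base windows, had 0.06 (edgeR adjusted p = 0.928). Tln1 and Rap1b, which activate integrins from inside the cell, had -0.34 (edgeR adjusted p = 0.19) and 0.39 (edgeR adjusted p = 0.129).

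Adgre1 and Cx3cr1 were too low to compare. Adgre1, which encodes the adhesion receptor F4/80 (chromosome 17, 57358691 to 57483527, plus strand), had 6, 3, 7 and 9 counts in CPT-11 replicates 1 to 4, against 7, 3, 6 and 8 in vehicle replicates 1 to 4. Cx3cr1, which encodes the receptor for fractalkine on resident intestinal macrophages (chromosome 9, 119901616 to 120069879, minus strand), had 4, 3, 5 and 5 counts in CPT-11 replicates 1 to 4, against 11, 6, 3 and 10 in vehicle replicates 1 to 4. The groups overlapped for both genes, and a difference between them was not detectable at this depth. With no expression filter, and with adjustment over the larger set of genes this leaves, the log2 fold change was 0.18 for Adgre1 (edgeR adjusted p = 0.895) and -0.69 for Cx3cr1 (edgeR adjusted p = 0.536).

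The ligands of the marker receptors were measured in the same crypts, and none of the 5 tested of the 8 listed was called. Csf1, a ligand of CSF1R, averaged 1.11 ± 0.574 CPM with CPT-11 and 0.506 ± 0.217 CPM with vehicle (log2 fold change 1.15, edgeR adjusted p = 0.205, SD, n = 4 each). Il34, the other ligand, had 0 to 21 counts and was not tested. Cx3cl1, the ligand of CX3CR1, stood at 68.9 ± 10.8 CPM with CPT-11 and 62.8 ± 3.84 CPM with vehicle (log2 fold change 0.13, edgeR adjusted p = 0.547, SD, n = 4 each), so the ligand passed the filter and its receptor did not. Icam1, a ligand of beta 2 integrins, averaged 3.92 ± 0.599 CPM with CPT-11 and 2.04 ± 0.977 CPM with vehicle, with groups that did not overlap (log2 fold change 0.94, edgeR adjusted p = 0.131, SD, n = 4 each). Icam2 and the complement gene C3 had log2 fold changes of 0.69 (edgeR adjusted p = 0.495) and 1.20 (edgeR adjusted p = 0.267).

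Of 16 colony-stimulating factors and monocyte chemokines, 10 were tested, 2 were called upward and none downward, and the median log2 fold change was 0.86. Cxcl16, a chemokine also made by epithelium, rose to 27.6 ± 5.90 CPM with CPT-11, against 6.24 ± 1.69 CPM with vehicle (log2 fold change 2.14, edgeR adjusted p = 0.00129, SD, n = 4 each). Ccl20, which attracts CCR6-bearing dendritic cells and lymphocytes, rose to 1.95 ± 0.710 CPM with CPT-11, against 0.534 ± 0.266 CPM with vehicle (log2 fold change 1.87, edgeR adjusted p = 0.0326, SD, n = 4 each). Flt3l, the dendritic cell growth factor, had a log2 fold change of 0.91 (edgeR adjusted p = 0.253). The monocyte attractants Ccl2 and Ccl7 had at most 3 and 1 counts in any library, and Csf3 had 0. The count of calls was 1 when CPT-11 replicate 1 or 4 or vehicle replicate 1, 3 or 4 was left out.

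Further macrophage genes gave a check on the name of the set. Of 18 listed genes of resident and tissue macrophages, 11 were tested, 2 were called upward and none downward, with a median log2 fold change of 0.90 and 10 of 11 values positive. Cd14, a co-receptor for lipopolysaccharide, rose to 12.3 ± 2.03 CPM with CPT-11, against 4.95 ± 1.04 CPM with vehicle (log2 fold change 1.32, edgeR adjusted p = 0.00658, SD, n = 4 each). C1qc, a chain of complement C1q, rose to 3.03 ± 0.745 CPM with CPT-11, against 1.18 ± 0.430 CPM with vehicle (log2 fold change 1.36, edgeR adjusted p = 0.0445, SD, n = 4 each). C1qb had a log2 fold change of 1.32 (edgeR adjusted p = 0.0974) and Ctss, a lysosomal protease of antigen-presenting cells, 0.70 (edgeR adjusted p = 0.0633). The summed level of the list was 154.8 to 207.4 CPM in the CPT-11 libraries and 111.2 to 146.9 CPM in the vehicle libraries. Among the other tested genes, none of which was called, Mertk, a receptor for dying cells, averaged 32.5 ± 17.2 CPM with CPT-11 and 42.8 ± 8.99 CPM with vehicle, and Mrc1, a mannose receptor, 1.11 ± 0.398 CPM with CPT-11 and 0.596 ± 0.166 CPM with vehicle (SD, n = 4 each). C1qa averaged 3.36 ± 1.31 CPM with CPT-11 and 1.73 ± 0.605 CPM with vehicle, and Mpeg1, with groups that did not overlap, 3.22 ± 0.448 CPM with CPT-11 and 2.09 ± 0.533 CPM with vehicle (SD, n = 4 each). Of the 7 genes below the filter, Cd163 and Cd209f were at 0 in all 8 libraries, Trem2 at 0 to 3, Timd4 at 0 to 4 and Fcgr1 at 0 to 12 counts. The list's count of calls was 1 in each fit that left out a single library other than CPT-11 replicate 2 or 3, and also without CPT-11 replicates 2 and 4 together, against 3 without CPT-11 replicate 2 and 4 without CPT-11 replicate 3.

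Genes of monocytes and dendritic cells lay mostly below the filter. Of 11 monocyte genes 3 were tested and none was called, with Ccr2 at 0 to 8 and Ly6c2 at 3 to 16 counts. Plac8 and Ace, which epithelial cells also express, carried most of that list's summed level of 1077 to 1729 CPM with CPT-11 and 904.6 to 1389 CPM with vehicle. Of 15 dendritic cell genes 6 were tested and none was called, with a median log2 fold change of -0.16. The lineage genes Flt3, Zbtb46, Xcr1 and Clec9a had at most 22, 12, 6.31 and 6 counts in any library. Bst2, also an interferon-induced gene, had a log2 fold change of 1.09 (edgeR adjusted p = 0.061), Cd83 -0.60 (edgeR adjusted p = 0.0708), Siglech 0.76 (edgeR adjusted p = 0.255) and Sirpa -0.28 (edgeR adjusted p = 0.429). The markers' label was thus met only in part in these libraries, with the macrophage genes Csf1r, Aif1 and the C1q genes at low levels. Adgre1, Cx3cr1 and the macrophage genes Cd163, Cd209f, Trem2, Timd4, Fcgr1, Ms4a7 and Clec12a were below the filter. So were these 4 dendritic lineage genes.

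The transcription factors that set up myeloid cells were called in neither direction, with 14 of 15 tested and a median log2 fold change of 0.19. Spi1, which encodes PU.1, averaged 1.36 ± 0.390 CPM with CPT-11 and 0.632 ± 0.257 CPM with vehicle, with groups that did not overlap (log2 fold change 1.10, edgeR adjusted p = 0.108, SD, n = 4 each). Id2 had 0.38 (edgeR adjusted p = 0.225) and Cebpa -0.34 (edgeR adjusted p = 0.235).

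Other cells of the preparation that can carry the same genes were measured beside the markers. Neutrophil genes were nearly absent, with S100a8 and S100a9 at 0 or 1 count, 5 of 13 genes at 0 in all libraries, only Ltf tested, and summed levels of 4.33 to 5.79 CPM with CPT-11 and 0.474 to 1.18 CPM with vehicle. Ltf, which encodes lactoferrin, was called upward at 3.45 ± 0.527 CPM with CPT-11 and 0.184 ± 0.071 CPM with vehicle (log2 fold change 4.18, edgeR adjusted p = 0.000198, SD, n = 4 each), and it is made by epithelia too. Of 14 mast cell, basophil and eosinophil genes 3 were tested and none was called, with summed levels of 12.97 to 48.18 CPM with CPT-11 and 12.7 to 23.15 CPM with vehicle, and Tpsab1, Prg2 and Ccr3 at 0 in all libraries. Among all 14 pan-leukocyte genes none was called, with a median log2 fold change of 0.17, and Ptprc, which encodes CD45, averaged 23.6 ± 6.10 CPM with CPT-11 and 21.6 ± 11.7 CPM with vehicle (log2 fold change 0.13, edgeR adjusted p = 0.837, SD, n = 4 each). Of 16 T and natural killer cell genes 14 were tested and none was called (median 0.28), with summed levels of 347.8 to 547.0 CPM with CPT-11 and 163.2 to 527.3 CPM with vehicle.

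B cell genes were measured as well. Of 12 B and plasma cell genes 11 were tested and 4 were called upward and none downward, among them Ms4a1 (log2 fold change 2.403, edgeR adjusted p = 0.0195), Cd79b (1.64, 0.0264) and Cd79a (2.34, 0.0406). The list's summed level was 221.7 to 289.2 CPM with CPT-11 and 220.1 to 252.9 CPM with vehicle, most of it Xbp1, which secretory epithelial cells also express. No gene of the list was called when CPT-11 replicate 1 or 4 or vehicle replicate 1 or 4 was left out, and 1 was called without vehicle replicate 2 or without CPT-11 replicates 2 and 4. The part of B cells in the marker values was not tested.

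Crypt epithelium, the labelled cell type, was well measured. None of 11 epithelial genes was called (median 0.25), with summed levels of 16190 to 23360 CPM with CPT-11 and 14450 to 16790 CPM with vehicle, and none of 9 Paneth cell genes was called (median -0.27), though 7 of the 9 were called downward without CPT-11 replicates 2 and 4. None of the 10 tested tuft cell genes (median -0.06), the 7 tested fibroblast and smooth muscle genes (median 0.90) or the 4 tested endothelial genes was called. Genes listed for dissociation stress stood apart between the groups, with a summed level of 971.1 to 1131 CPM with CPT-11 and 581.9 to 690.1 CPM with vehicle. Of the 14, 5 were called upward and none downward, among them Hspa1b (log2 fold change 2.11, edgeR adjusted p = 0.0116), Hspa1a (2.74, 0.0183), Junb (0.71, 0.0229) and Hsp90aa1 (0.66, 0.0368). The number called was 1 without vehicle replicate 3 or 4, 2 without CPT-11 replicate 1 or vehicle replicate 1, and 3 without CPT-11 replicate 4 or vehicle replicate 2. Treatment and handling cannot be told apart in these genes with this design. The part of handling in the marker values was not tested.

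**Figure D4:**
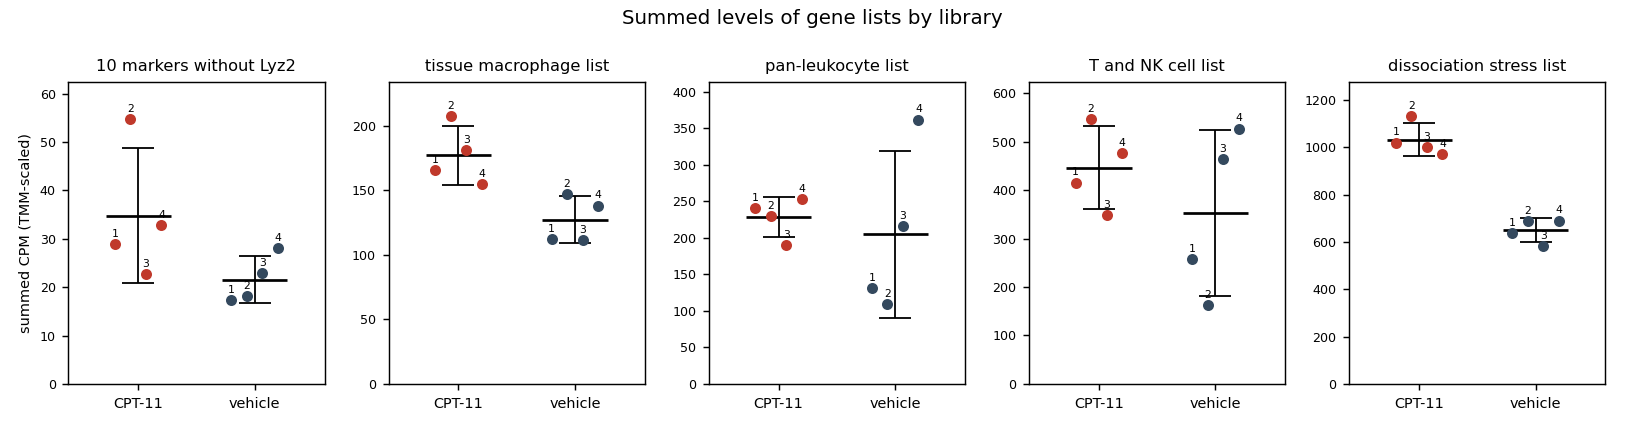
Summed CPM of 5 gene lists by library, with CPT-11 left and vehicle right, group means as thick lines and 1 SD as bars (n = 4 per group) on linear axes that start at 0. The tissue macrophage and dissociation stress lists are higher in all 4 CPT-11 libraries. Most of the tissue macrophage sum is Ctss and Mertk, neither of them called. The other 3 lists overlap, with vehicle replicate 4 highest for the pan-leukocyte list.

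The markers varied among libraries in a partly shared way. Summed over the 10 markers, the level was 55.8, 72.4, 48.9 and 69.3 CPM in CPT-11 replicates 1 to 4, against 44.1, 46.8, 53.4 and 58.3 CPM in vehicle replicates 1 to 4. Without Lyz2 it was 28.9, 54.8, 22.7 and 32.8 CPM with CPT-11, and 17.3, 18.2, 22.8 and 28.01 CPM with vehicle. In both sums CPT-11 replicate 2 was highest and CPT-11 replicate 3 lay within the vehicle range, as did CPT-11 replicate 1 in the sum with Lyz2. In CPM, CPT-11 replicate 2 held the highest value of 4 of the 10 markers, namely Csf1r, Cd68, Tyrobp and Fcer1g. That order depends on the unit for Cd68 and Tyrobp. In TPM the highest Cd68 value was in a vehicle library, at 2.58 TPM, against at most 2.30 TPM with CPT-11. The highest Tyrobp value in TPM, 19.7, was not that of CPT-11 replicate 2.

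Likeness to the set was measured as the root-mean-square difference between a gene's z-scored log2 CPM (with 0.5 CPM added) and the markers' profile. That profile was the mean z-score of the 8 tested markers, itself z-scored over the 8 libraries. Among the markers it was smallest for Cd68 at 0.408, then Tyrobp at 0.478, Csf1r at 0.571, Fcer1g at 0.594 and Aif1 at 0.745, and largest for Itgax at 1.01, Lyz2 at 1.47 and Itgam at 1.77. The 5 genes outside the markers with the smallest difference were AW112010 at 0.18, Nxn at 0.183, Cd37 at 0.206, Nol3 at 0.215 and Gmfg at 0.218. They were picked as the closest of all tested genes, so their smaller values do not rank them above the markers. Each tested marker also enters the profile it is compared with. Cd37, a leukocyte tetraspanin, averaged 8.03 ± 3.26 CPM with CPT-11 and 4.04 ± 1.71 CPM with vehicle (SD, n = 4 each), and with a log2 fold change of 0.98 it was not called (edgeR adjusted p = 0.131). All 8 libraries enter this measure, and the parts of group, depth and preparation in it were not told apart.

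**Figure D5:**
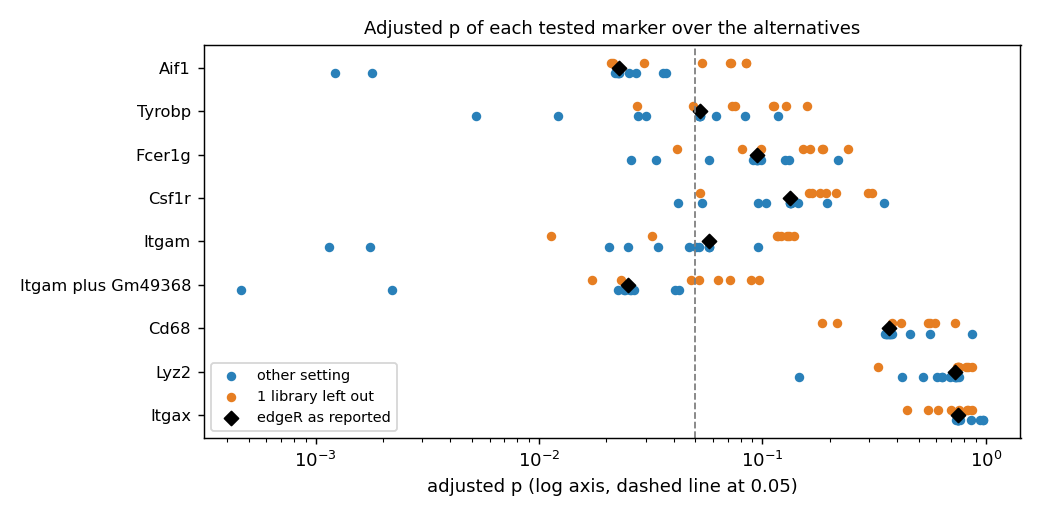
Adjusted p of each tested marker and of Itgam plus Gm49368 in the fit as reported (diamonds), with 1 library left out (orange) and under other settings (blue), on a log axis with a dashed line at 0.05. Points of Aif1, Tyrobp, Fcer1g, Csf1r, Itgam and the summed locus lie on both sides of the line, while those of Cd68, Lyz2 and Itgax all lie above it.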

How the data were processed

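RNA was sequenced from 4 CPT-11 and 4 vehicle libraries of ileal crypt cells, and samples were grouped by their treatment label. The authors deposited estimated counts per gene without normalization, and between 10.3% and 11.1% of the values in a library were not whole numbers. The submitters' processing notes name Bowtie2 2.4.1 and the genome build GRCm38.p6. Neither the counting tool nor its strand setting is given in the sources used here. The 543 rows of the 56030 that have no gene name, holding 0.325% to 0.662% of each library's count, entered neither library sizes nor tests.

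After rounding the estimated counts, genes were tested in R 4.3.3 with edgeR 4.0.16, using TMM scaling, filterByExpr (about 10 counts in 4 libraries, 15 over all), robust quasi-likelihood fits and a two-sided F test, with Benjamini-Hochberg adjustment over the 14011 genes kept and a threshold of 0.05. CPM are the unrounded estimated counts over the TMM-scaled library size, and TPM use the table's gene lengths. Standard errors were derived from the F statistic. Fits were first tested on simulated data. Alternatives, including DESeq2 1.42.0 and limma 3.58.1 (voom), are described in the closing section.

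The 10 markers and the 19 lists beside them were chosen with earlier results of these data known. All markers are named, as are up to 4 tested genes with the smallest p per list, a fixed set of receptor partners (Lyz1, Ptprc, Itgb2, Csf1, Il34, Cx3cl1, Icam1, Spi1, Syk, Trem2) and the 5 genes most like the set. Gm49368, Itgad, Hmgxb3, Mertk, Mrc1, C1qa, Mpeg1 and the list genes named for low counts or for carrying a list's sum were chosen after their values were seen. A few genes that this rule names are not reported here. Coordinates are from GENCODE M21, where all 10 markers were found by identifier. No 2 libraries held identical values. Depth limits the markers at a few counts, where counting error alone is large.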

Additional observations from a re-analysis of the deposited data

Results flagged for a closer look

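Cd68 in vehicle replicate 4 stood at 2 CPM, against 0.698 to 0.877 CPM in the other 3 vehicle libraries, a gap of 0.863 of the group's whole range where Dixon's critical value for 4 samples is 0.829. It was the only such sample among the 24 groups examined, and chance alone gives about 1 in 20 groups.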

How the results depend on the processing

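Of the 20 alternatives per marker, Aif1 could be fitted in 19 (it fell below the filter of 1 CPM in 4 libraries) and was called in 14. Those calls include the fits with Lyz1 and Lyz2 summed and with Itgam and Gm49368 summed. Both leave the Aif1 row unchanged (edgeR adjusted p = 0.0229 in each), so they are no check on it. The same holds for each marker whose own row was not summed. Markers called higher with CPT-11 numbered 1 as reported, 2 with no filter or with the length trend removed, 0 with the stricter filter, 3 by DESeq2, 4 by voom with quality weights, and 0 to 3 with 1 library left out. Markers called lower numbered 0 as reported and 0 to 1 with 1 library left out. They numbered 1 with no filter, by DESeq2, by voom with quality weights, with the length trend removed and without CPT-11 replicates 2 and 4. The count was also 1 with Itgam and Gm49368 summed, where the called row is the sum and not Itgam alone. The markers' median log2 fold change of 0.88 was 0.43 with no filter, which adds Adgre1 and Cx3cr1, 0.29 without CPT-11 replicates 2 and 4, and 0.45 to 1.07 with 1 library left out. Over all genes, 770 were called, against 1884 by DESeq2, 3172 by voom with quality weights, 1294 with the length trend removed, 1212 without CPT-11 replicates 2 and 4, and 236 to 1522 with 1 library left out. Lyz1 plus Lyz2, at -0.59 and not called, was called at -0.59 by DESeq2 (adjusted p = 0.00614), -0.70 by voom with quality weights (0.00719), -0.81 with the length trend removed (0.0128) and -0.79 without CPT-11 replicates 2 and 4 (0.0181). Itgam plus Gm49368 ran between -0.91 and -0.70 with 1 library left out. Itgax turned to 0.22 by voom with quality weights and ran between -0.53 and 0.35 with 1 library left out (0.35 without vehicle replicate 4), and Lyz2 ran between -0.31 and 0.047 (0.047 without CPT-11 replicate 2). The causes were not tested. Same-numbered libraries correlated at 0.31, 0.166, -0.158 and 0.121 in their deviations from the group means, and 2 of 4 numbers matched best with their own. As 1 of the 4 pairs was below 0.1 and no label ties the numbers, they were not treated as pairs. With the replicate block 686 genes were called, and the markers gave 1 call upward, Aif1 at 2.16 (adjusted p = 0.0371), and 0 downward. The block with the length correction, planned only for paired libraries, was not run.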
